A study of Mus musculus with 18 samples.

Results

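Transcripts of 9 genes that encode AP-1 factors or their bZIP partners were followed through heat shock in mouse cells with and without knockdown of the heat shock factor HSF1 or of SSBP1. The genes were Fos, Fosb, Fosl1 and Fosl2 (the FOS family), Jun, Junb and Jund (the JUN family), Atf3 and Maff. They are a list of symbols, drawn up with earlier results of these data known, out of 19938 gene symbols on the arrays, and each of the 9 was read by 1 probe set annotated to that symbol alone. The cells were immortalized embryonic fibroblasts (MEF cells) of ICR mice, all of them infected with adenovirus for 2 h and then kept for 70 h in normal medium. The virus carried scrambled RNA in the SCR groups, short hairpin RNA against HSF1 in the HSF1-KD groups and short hairpin RNA against SSBP1, a mitochondrial single-stranded DNA-binding protein, in the SSBP1-KD groups. Each kind of cell was either left at 37 °C (Cont) or exposed to 42 °C during 1 h (HS), and 3 arrays stand for each of these 6 groups. Per the legends, the arrays used a single hairpin virus per target, so an effect of the knockdown and an effect of that hairpin cannot be told apart. The labels do not say whether the 3 arrays of a group stem from separate cultures, and p-values here measure only how far these samples vary, possibly for technical reasons alone.

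AP-1 is a dimer of basic leucine zipper proteins, in which a JUN protein pairs with a FOS protein, an ATF protein or another JUN protein and binds a short palindromic DNA element. Fos and Jun are classic immediate-early genes: growth factors and stress switch them on within minutes through MAP kinases that act on factors already bound at their promoters. ATF3 and the small MAF protein MAFF lack the transactivation domains of FOS and JUN, and ATF3 often represses. Jund is usually present in resting cells, while Fosl1 is best known as a late and lasting member of the family in proliferating or transformed fibroblasts.

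Promoters are shown for the 3 members with the largest heat responses in SCR, to let their letters be read beside the values. Elements of the CREB/ATF or AP-1 type close to the start site were not limited to these 3. They are the 250 bases before the start in RefSeq's GRCm38.p6, read 5′ to 3′ on the gene's own strand: Fos at chr12:85473640-85473889 (+ strand), Jun at chr4:95052223-95052472 (- strand) and Atf3 at chr1:191183334-191183583 (- strand). Capitals mark every match to the elements searched.
Fos: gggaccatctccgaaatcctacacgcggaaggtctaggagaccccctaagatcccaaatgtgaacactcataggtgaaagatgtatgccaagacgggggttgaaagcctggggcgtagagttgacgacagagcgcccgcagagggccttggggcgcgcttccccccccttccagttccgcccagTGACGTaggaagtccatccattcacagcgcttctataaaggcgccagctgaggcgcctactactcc
Jun: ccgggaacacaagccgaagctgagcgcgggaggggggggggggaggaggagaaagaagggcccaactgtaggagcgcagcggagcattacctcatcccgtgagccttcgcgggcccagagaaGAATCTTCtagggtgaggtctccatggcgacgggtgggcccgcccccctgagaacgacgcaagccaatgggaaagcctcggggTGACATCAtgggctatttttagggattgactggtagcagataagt
Atf3: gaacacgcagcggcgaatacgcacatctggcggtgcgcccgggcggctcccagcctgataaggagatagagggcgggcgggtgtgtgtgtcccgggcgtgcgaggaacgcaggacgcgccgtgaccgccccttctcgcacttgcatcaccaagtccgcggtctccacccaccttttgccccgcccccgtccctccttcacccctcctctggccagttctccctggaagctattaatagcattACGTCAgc
In Fos the capitals are TGACGT, the core of the CREB/ATF element, at positions -66 to -61, where -1 is the base before the start site. In Jun they are TGACATCA at -45 to -38, a match to TGANNTCA, the 8-base element of JUN and ATF dimers, and a match to GAANNTTC, a pair of inverted heat shock units, at -128 to -121. In Atf3 they are ACGTCA at -8 to -3, which is TGACGT on the other strand. Over both strands of 32851 promoters of this length, TGACGT was found in 6.47%, TGANNTCA in 11.9% and GAANNTTC in 6.69%. The palindrome TGACGTCA, which contains TGACGT and is one form of TGANNTCA, was found in 1.55% and, among the members, in 1 promoter entry of Maff, at -29 to -22. Another entry of Maff held TGACATCA at -45 to -38, the letters and place seen in Jun, and Jund held TGAAATCA, also a match to TGANNTCA, at -61 to -54, although both genes rose less with heat. Fosl2, which also rose less than Jun, held GAAGTTTC, a match to GAANNTTC, at -244 to -237. The search for TGACGT alone was added after the sequences had been seen. Also searched were TGANTCA, the 7-base AP-1 element (6.75% of promoters), TTCNNGAA (7.17%), the heat shock element of 3 units, which is TTCNNGAA with NNTTC after it (0.466%) and the CArG box of SRF (1.47%), none of which occurred in these windows for the 8 of 9 members that matched an entry. A match is a description of the letters, and its absence here says nothing beyond this window.

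The values are log2 signals, so a difference of 1 is a doubling, and a gene is said to rise, fall, be higher or be lower when limma's moderated test gave an adjusted p under 0.05 over all 35557 probe sets. Array medians lay between 7.88 and 7.94 and arrays of a group correlated at 0.985 or above, with the largest mean residual (0.152) in SSBP1-KD Cont replicate 1. Of 9 fibroblast markers, 8 lay above the array median, and 1 of the 9, S100a4, fell with heat in SCR (-0.42, adjusted p = 0.00304). Of 3 striated muscle markers Acta1 rose with heat in SCR (0.23, adjusted p = 0.00969), while Myh3 (adjusted p = 0.606) and Ckm (adjusted p = 0.234) did not pass. Above the array median lay 1 of 5 epithelial, 0 of 4 endothelial and 1 of 3 neuronal markers. The 4 blood markers were uneven: Ptprc, which defines blood cells, sat between 6.07 and 6.66, whereas Cd3e rose in SCR with heat by 1.33 (adjusted p = 2.48e-07) and Cd68 by 0.35 (adjusted p = 0.0131). Summed over the 4 blood markers, the log2 level ranged from 10.01 to 10.80 between groups, and the part of other cells in the results was not tested. Fewer cells of a type and less RNA per cell cannot be told apart in bulk RNA. Ssbp1 itself differed between SSBP1-KD and SCR by -0.22 in Cont (adjusted p = 0.0555) and by -0.41 in HS (adjusted p = 0.00155). Ssbp1 also fell with heat, at -0.36 in SCR (adjusted p = 0.00614), -0.29 in HSF1-KD (adjusted p = 0.0203) and -0.55 in SSBP1-KD (adjusted p = 0.000642). Hsf1 was not analysed here because no probe set carries its symbol alone.

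The first question was how the AP-1 genes respond to heat in scrambled RNA-treated cells. Of the 9 genes, 8 rose and none fell, where 7.63% of all 19938 genes rose and 8.34% fell (16% in all). Atf3, which encodes a stress-induced repressor and partner of JUN, rose most. Its 3 SCR Cont arrays read 9.96, 10.10 and 9.80 and its 3 SCR HS arrays 12.45, 12.59 and 12.69, a 6.18-fold rise (log2 2.63, standard error 0.08, adjusted p = 3.87e-11). All heated arrays lay above all unheated ones by more than any spread within a group, and in the order of heat rises over all 19938 genes Atf3 stood 4th.

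Fos, the founding member of its family, read 7.92, 8.01 and 8.14 before heat and 10.00, 10.24 and 10.29 after it. The rise was 4.45-fold (log2 2.15, standard error 0.10, adjusted p = 3.25e-09). Jun, its usual partner, went from 10.46, 10.48 and 10.41 to 12.17, 12.38 and 12.24. That was 3.52-fold (log2 1.81, standard error 0.05, adjusted p = 1.21e-11). By size of rise Fos stood 7th and Jun 12th among all genes, and in neither did the heated and unheated arrays overlap.

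The other members moved less. Maff, a small MAF protein that forms dimers with itself and with other bZIP proteins, went from 8.15, 8.20 and 8.17 to 8.81, 9.10 and 8.92, a 1.71-fold rise (adjusted p = 9.74e-06). It was the last of 4 members past a fold of 1.5, a size of change that 1.24% of all genes had with an adjusted p under 0.05. Junb, a JUN protein that often restrains JUN, rose by 0.49 on the log2 scale (adjusted p = 4.97e-05), Jund by 0.47 (adjusted p = 0.000121), Fosb by 0.45 (adjusted p = 0.000812) and Fosl2 by 0.39 (adjusted p = 0.000201). In each of these 4 the heated arrays lay above the unheated ones. Over the 8 genes that rose, heated and unheated arrays never overlapped, which was also true of 34.4% of all genes. Fosl1 was the exception in SCR: it read 10.38, 10.35 and 9.94 before heat and 10.22, 9.92 and 9.95 after it, a difference of -0.19 with a 95% interval of -0.43 to 0.04 (adjusted p = 0.31). Its groups overlapped. Without SCR Cont replicate 3, the dimmest of its group for Fosl1, the difference was -0.33 and passed (adjusted p = 0.0362).

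**Figure D1:**
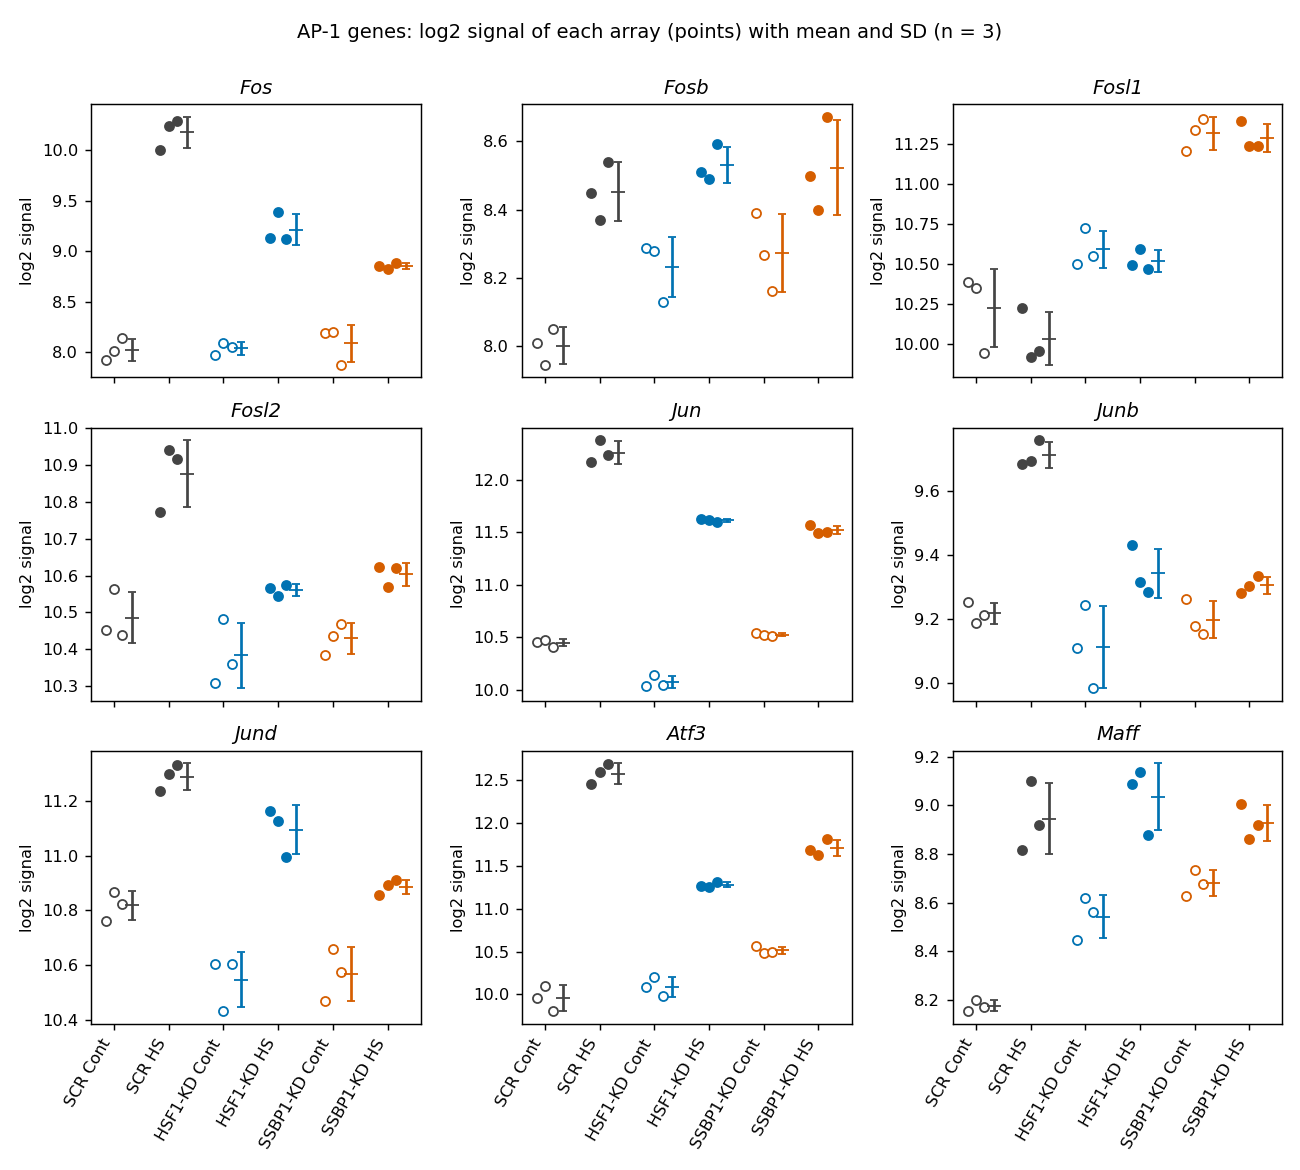
Log2 signal of the 9 AP-1 genes (vertical axis, a scale of its own for each gene) in the 6 groups; open points are Cont arrays, filled points HS arrays, and the bar beside them is the mean with its SD (n = 3). SCR HS stands highest for Fos, Jun and Atf3, at means of 10.18, 12.26 and 12.58, and also for Fosl2, Junb and Jund. The groups of Fosl1 pair by kind of cell, and no heat difference of Fosl1 passed in the main fit.

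In HSF1-KD the same number of members rose, 8 of 9 (10.6% of all genes rose there, and 10.8% fell), and again only Fosl1 did not, at -0.07 (adjusted p = 0.717). Jun held the largest rise. Its HSF1-KD Cont arrays read 10.03, 10.14 and 10.05 and its HSF1-KD HS arrays 11.63, 11.62 and 11.60, which is 2.92-fold (log2 1.54, standard error 0.05, adjusted p = 2.98e-10) and the 5th largest rise of all genes in these cells. Atf3 rose 2.28-fold, from 10.08, 10.20 and 9.98 to 11.27, 11.25 and 11.31 (adjusted p = 6.33e-07), and Fos 2.26-fold, from 7.97, 8.09 and 8.05 to 9.13, 9.39 and 9.12 (adjusted p = 2.78e-06). The order of the 3 leading members was therefore not that of SCR, where Atf3 led. Jund rose by 0.55 and Maff by 0.49 on the log2 scale.

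The smaller rises in HSF1-KD, of Fosb (log2 0.30, adjusted p = 0.0117), Junb (0.23, adjusted p = 0.0129) and Fosl2 (0.18, adjusted p = 0.0346), each rested on single arrays. Without HSF1-KD Cont replicate 3 all 3 missed the threshold (adjusted p = 0.0589, 0.0664 and 0.101), which leaves 5 rises. Junb also missed it without HSF1-KD HS replicate 1 (adjusted p = 0.0676), and Fosl2 without HSF1-KD Cont replicate 1 (adjusted p = 0.123) or without any one of the HSF1-KD HS arrays (adjusted p = 0.0707 to 0.0876).

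Whether HSF1 knockdown changed a heat response was tested on the difference between the responses of HSF1-KD and SCR. It was smaller in HSF1-KD for 2 members and larger for none, where the response of 0.336% of all genes was smaller and that of 0.01% larger. Atf3 lost most, with a value of -1.44 on the log2 scale (adjusted p = 7.38e-06, standard error 0.11), so that it kept 45.4% of its log2 rise in SCR. For Fos the difference was -0.98 (standard error 0.14, adjusted p = 0.00367), with 54.6% kept. The study's own kind of test, an unmoderated one, gave an adjusted p of 0.0688 for Fos. Here and below that test was adjusted over all probe sets, whereas the study's array legend names no adjustment. Jun kept 85.1% of its rise, and its difference of -0.27 (95% interval -0.42 to -0.12) missed the threshold (adjusted p = 0.217). For Jund the difference was 0.08, with an interval from -0.11 to 0.27 (adjusted p = 0.873). The other 5 members lay between -0.28 for Maff and 0.12 for Fosl1, none of which passed.

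In SSBP1-KD only 4 of the 9 members rose, Fos, Jun, Jund and Atf3, where 4.08% of all genes rose and 2.82% fell (6.9% in all). Atf3 went from 10.56, 10.48 and 10.50 to 11.68, 11.63 and 11.82, a 2.29-fold rise (adjusted p = 5.58e-07). Jun went from 10.54, 10.52 and 10.51 to 11.57, 11.50 and 11.51, a log2 rise of 1.00 (standard error 0.05, adjusted p = 1.98e-08). Fos went from 8.19, 8.19 and 7.87 to 8.85, 8.82 and 8.88, which is 1.70-fold (adjusted p = 0.00023). In all 3 genes the heated arrays stayed above the unheated ones but below every SCR HS array. Groups without overlap between SSBP1-KD HS and SCR HS were seen for 45.3% of all genes. Jund, a broadly expressed JUN protein, rose 1.25-fold (adjusted p = 0.00538), a call lost when the compared groups were fitted alone (adjusted p = 0.0858) and with the study's own kind of test (adjusted p = 0.139).

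Fosb (log2 0.25, adjusted p = 0.0587), Maff (0.25, adjusted p = 0.0668) and Fosl2 (0.17, adjusted p = 0.0702) lay just outside the threshold in SSBP1-KD, and their heated and unheated arrays did not overlap, as for 24.2% of all genes. Each of these 3 passed when the arrays were set to 1 median (adjusted p = 0.0398, 0.0486 and 0.0376), which makes 7 rises. Fosb also passed without SSBP1-KD Cont replicate 1 (adjusted p = 0.0291) or SSBP1-KD HS replicate 2 (adjusted p = 0.0351), Fosl2 without SCR HS replicate 1 (adjusted p = 0.0492), and Maff without SCR HS replicate 2 (adjusted p = 0.043) or HSF1-KD HS replicate 3 (adjusted p = 0.0413). Junb was at 0.11 (95% interval -0.02 to 0.24, adjusted p = 0.314) and Fosl1 at -0.03 (adjusted p = 0.915).

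Set against SCR, the heat response was smaller in SSBP1-KD for 3 members, where it was smaller for 0.311% of all genes and larger for 0.181%. These were Atf3 at -1.43 on the log2 scale (adjusted p = 4.21e-05, standard error 0.11), Fos at -1.39 (standard error 0.14, adjusted p = 0.000247) and Jun at -0.82 (standard error 0.07, adjusted p = 7.36e-05). Of its SCR rise Fos kept 35.5%, Atf3 45.5% and Jun 54.9%. Maff, at -0.52 (95% interval -0.76 to -0.29, adjusted p = 0.0601), and Junb, at -0.39 (-0.57 to -0.21, adjusted p = 0.0695), did not pass. Both passed in several other fits: Maff without SCR HS replicate 1 (adjusted p = 0.0285) or HSF1-KD HS replicate 3 (adjusted p = 0.0365), and Junb without HSF1-KD Cont replicate 2 (adjusted p = 0.0334) or replicate 3 (adjusted p = 0.0395). The comparisons of both knockdowns with SCR share the SCR arrays.

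**Figure D2:**
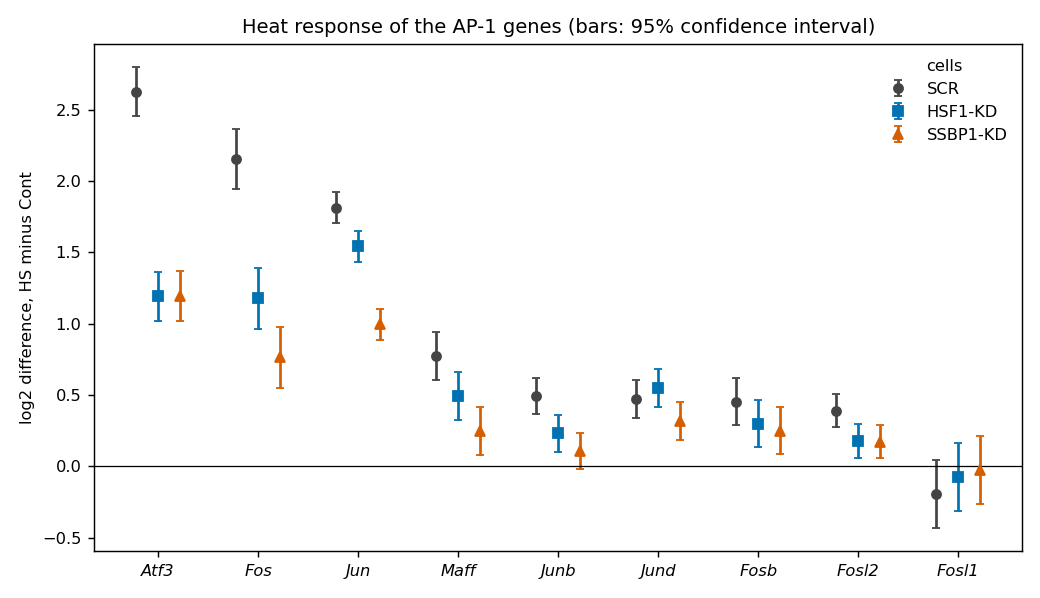
Heat response of the 9 AP-1 genes in the 3 kinds of cell, as the log2 difference HS minus Cont (vertical axis); points are fitted differences of 3 against 3 arrays and bars their 95% confidence intervals. Atf3 sits at 2.63 in SCR and at 1.19 and 1.20 in the knockdowns, whereas Jun steps down from 1.81 to 1.54 in HSF1-KD and 1.00 in SSBP1-KD.

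The heat responses of SSBP1-KD and HSF1-KD were also compared with each other. That difference uses no SCR mean, but the SCR arrays still entered the shared estimate of spread behind its test. Jun was the single member that differed. Its response was smaller in SSBP1-KD, by a difference of -0.55 on the log2 scale (adjusted p = 0.00365, standard error 0.07), in a comparison where 0.0502% of all genes had a smaller response in SSBP1-KD and 0.291% a larger one. For Atf3 the difference was 0.00 with a 95% interval of -0.24 to 0.25 (adjusted p = 0.996), and for Fos it was -0.41 with an interval of -0.71 to -0.11 (adjusted p = 0.251). Jun started higher in SSBP1-KD than in HSF1-KD, at means of 10.53 and 10.07, and ended near it, at 11.52 and 11.61. Chaperone genes, the classic targets of HSF1, lay on the other side: of 14 measured, 6 had a larger response in SSBP1-KD than in HSF1-KD and none a smaller one, with a median of 0.29 against -0.01 over all genes, and Hspa1a, which encodes HSP70, differed by 2.86 (adjusted p = 2.79e-10). Of 20 other immediate-early genes, Egr1 had a smaller response in SSBP1-KD (-0.99, adjusted p = 0.000147) and Ccn1 a larger one (0.53, adjusted p = 0.0222).

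**Figure D3:**
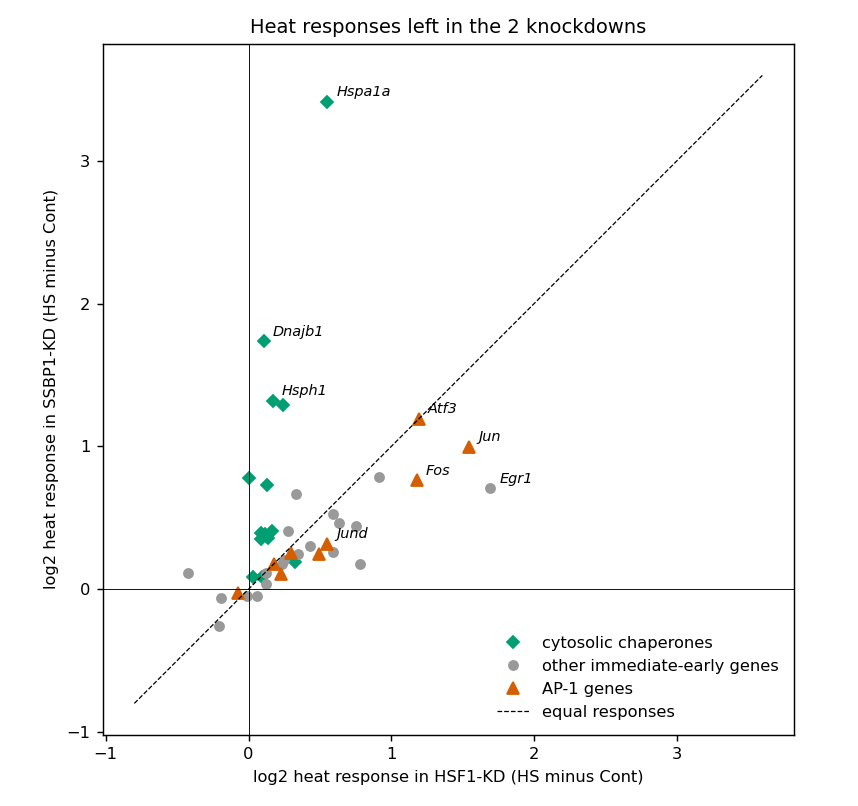
Log2 heat response (HS minus Cont) in HSF1-KD (horizontal axis) and in SSBP1-KD (vertical axis), 1 point per gene for the 9 AP-1 genes, 20 other immediate-early genes and 14 cytosolic chaperones; the dashed line marks equal responses. Jun, at 1.54 and 1.00, lies below the line and Hspa1a, at 0.55 and 3.42, far above it.

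Levels without heat shock were compared next. In HSF1-KD Cont 4 of the 9 members differed from SCR Cont, 2 higher and 2 lower, where 10.9% of all genes were higher and 10.1% lower (21% in all). Jun was lower, at 10.03 to 10.14 against 10.41 to 10.48 (log2 -0.38, standard error 0.05, adjusted p = 0.000126), and so was Jund (-0.27, adjusted p = 0.00739), though not when the compared groups were fitted alone (adjusted p = 0.0512) or with the study's own kind of test (adjusted p = 0.1003). Maff was higher by 0.37 (adjusted p = 0.00434). Fosl1 was higher by 0.37 as well (adjusted p = 0.0357), but its SCR Cont arrays were spread over 9.94 to 10.38, and it missed the threshold without SCR Cont replicate 3 (0.23, adjusted p = 0.168) and without HSF1-KD Cont replicate 2 (adjusted p = 0.151) or replicate 3 (adjusted p = 0.0651). Fosb, at 0.23 (adjusted p = 0.0525), passed without HSF1-KD Cont replicate 3 or without SSBP1-KD Cont replicate 1 or 3 or SSBP1-KD HS replicate 2 or 3 (adjusted p = 0.0333 to 0.0453).

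In SSBP1-KD Cont 5 members differed from SCR Cont, 4 higher and 1 lower, beside 14.6% of all genes higher and 16.5% lower (31.1% in all). Fosl1 stood out in size. Its SSBP1-KD Cont arrays read 11.21, 11.34 and 11.41, above every SCR array, a 2.14-fold higher level (log2 1.09, standard error 0.11, adjusted p = 6.29e-06). Atf3 was higher 1.48-fold (log2 0.56, adjusted p = 0.000131) and Maff 1.42-fold (log2 0.51, adjusted p = 0.000242), both without overlap between the groups, as for 44.2% of all genes. Fosb was higher by 0.27 (adjusted p = 0.0167), a call lost without SCR Cont replicate 2 (adjusted p = 0.0658) or SSBP1-KD Cont replicate 1 (adjusted p = 0.0736). Jund was lower, at -0.25 (adjusted p = 0.00857), and missed the threshold in the fit of the compared groups alone and in the study's own kind of test (adjusted p = 0.066 and 0.0958). Fos, at 0.06 with a 95% interval of -0.15 to 0.28, and Jun, at 0.08 (-0.03 to 0.19), did not pass.

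Between the knockdowns, 3 members were higher in SSBP1-KD Cont than in HSF1-KD Cont and none lower, beside 12.9% of all genes higher and 16.6% lower (29.4% in all). Fosl1 was higher by 0.73 (adjusted p = 0.000196), Jun by 0.45 (adjusted p = 1.04e-05) and Atf3 by 0.43 (adjusted p = 0.00118).

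After heat shock, both knockdowns had lower levels of most members than SCR. In HSF1-KD HS 6 were lower and 1 higher than in SCR HS, where 10.7% of all genes were lower and 13.1% higher (23.7% in all). The difference was -1.30 for Atf3 (standard error 0.08, adjusted p = 6.87e-08), -0.96 for Fos (adjusted p = 8.38e-06), -0.65 for Jun (adjusted p = 6e-07), -0.37 for Junb (adjusted p = 0.000461) and -0.32 for Fosl2 (adjusted p = 0.00091). In each of these 5 genes every HSF1-KD HS array lay below every SCR HS array, and 40.9% of all genes had no overlap between these groups. Jund, at -0.19 (adjusted p = 0.0461), was at the edge of the threshold and missed it in 16 of 27 alternatives, 13 of them with 1 array left out (adjusted p = 0.0507 to 0.198). The arrays whose absence ended that call were SCR Cont replicates 1, 2 and 3, SCR HS replicates 2 and 3, HSF1-KD Cont replicates 1 and 3, HSF1-KD HS replicates 2 and 3, SSBP1-KD Cont replicate 3 and SSBP1-KD HS replicates 1, 2 and 3. Fosl1 was the member that was higher (0.49, adjusted p = 0.0062).

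In SSBP1-KD HS, again, 6 members were lower and 1 higher than in SCR HS, beside 14.4% of all genes lower and 14.3% higher (28.7% in all). The difference was -1.33 for Fos (standard error 0.10, adjusted p = 5.38e-07), -0.87 for Atf3 (adjusted p = 3.19e-06), -0.74 for Jun (adjusted p = 2.64e-07), -0.41 for Junb (adjusted p = 0.000161), -0.40 for Jund (adjusted p = 0.000264) and -0.27 for Fosl2 (adjusted p = 0.00207). Fosl1 again went the other way, at 11.39, 11.24 and 11.24 against 10.22, 9.92 and 9.95 (2.40-fold, adjusted p = 2.08e-06). For Fosb and Maff the groups overlapped after heat, with differences from SCR HS of 0.08 and 0.09 in HSF1-KD and 0.07 and -0.02 in SSBP1-KD. None of these passed. The 95% intervals for Maff ran from -0.08 to 0.26 in HSF1-KD and from -0.19 to 0.15 in SSBP1-KD, and those for Fosb from -0.09 to 0.24 and from -0.09 to 0.23.

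Between the heated knockdowns, 4 members differed, 2 in each direction, beside 11.6% of all genes higher in SSBP1-KD and 14.1% lower (25.7% in all). Fosl1 (0.77, adjusted p = 0.000133) and Atf3 (0.43, adjusted p = 0.00124) were higher in SSBP1-KD HS. Fos (-0.36, adjusted p = 0.0165) and Jund (-0.21, adjusted p = 0.0281) were lower, but both calls hung on single arrays. Fos lost its call without HSF1-KD HS replicate 2 (adjusted p = 0.0911) or SSBP1-KD HS replicate 2 (adjusted p = 0.0542), and Jund without HSF1-KD HS replicate 1 or 2 or any one of the SSBP1-KD HS arrays (adjusted p = 0.0536 to 0.121).

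A fold above 1.5 beside the adjusted p left fewer calls in most comparisons. With heat, 4 members passed both in SCR (Atf3, Fos, Jun and Maff), and 3 in HSF1-KD and 3 in SSBP1-KD (Atf3, Fos and Jun in both), where 0.838% and 0.587% of all genes did. Against SCR none of the members passed both in HSF1-KD Cont (1.62% of all genes) and 3 did in HSF1-KD HS (Fos, Jun and Atf3; 2.31%). In SSBP1-KD the 1 that did so in Cont was Fosl1 (3.12%), and the 4 in HS were Fos, Jun, Atf3 and Fosl1 (3.16%). Fosl1 was also the 1 member past both between the knockdowns, in Cont (2.87%) and in HS (2.71%). For the differences in heat response both criteria kept Fos and Atf3 in HSF1-KD against SCR (0.231% of all genes), Fos, Jun and Atf3 in SSBP1-KD against SCR (0.181%), and 0 members between the knockdowns (0.0652%).

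**Figure D4:**
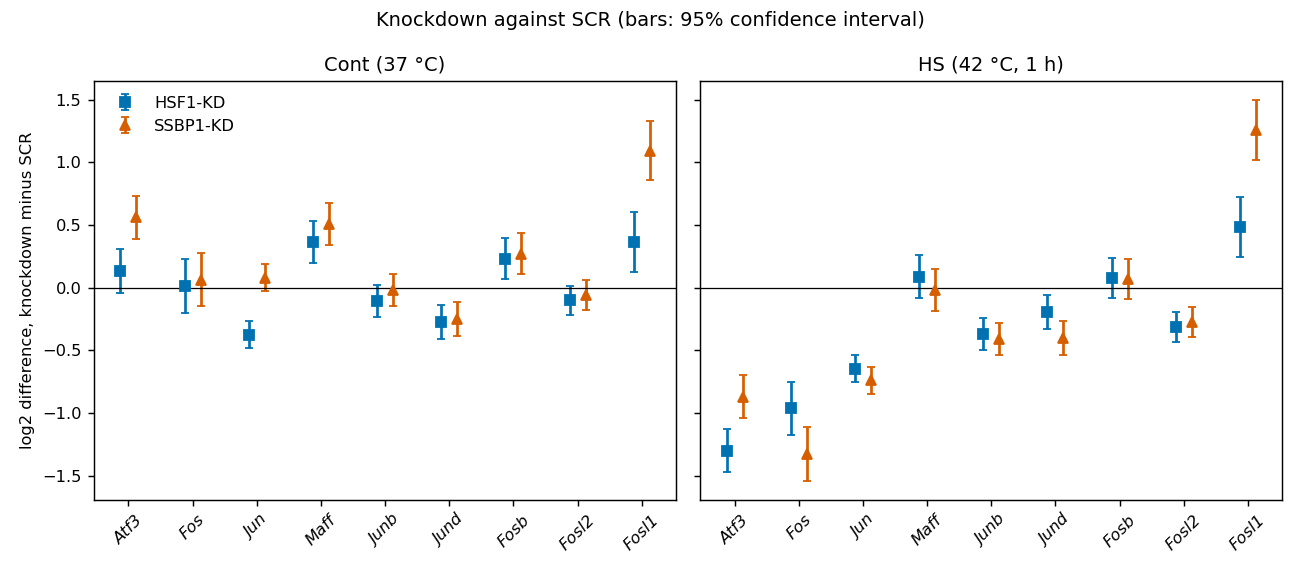
Log2 difference of HSF1-KD and of SSBP1-KD from SCR (vertical axis) for the 9 AP-1 genes in Cont (left) and HS (right), with 95% confidence intervals, 3 arrays per group. Fosl1 in SSBP1-KD is high on both sides, at 1.09 and 1.26, while Atf3 in SSBP1-KD changes from 0.56 in Cont to -0.87 in HS.

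Ordered by their means, the 6 groups fell into different patterns. Fos ran from the 3 Cont groups, at 8.02 to 8.09 with overlapping arrays, up to SSBP1-KD HS (8.85), HSF1-KD HS (9.21) and SCR HS (10.18), which did not overlap. Its Cont levels lay near the array medians of 7.88 to 7.94, and how far they stood above background signal was not tested. Jun had no overlap between any neighbours in its order, HSF1-KD Cont (10.07), SCR Cont (10.45), SSBP1-KD Cont (10.53), SSBP1-KD HS (11.52), HSF1-KD HS (11.61) and SCR HS (12.26), although the differences between SCR Cont and SSBP1-KD Cont and between both heated knockdowns did not pass. In Atf3 SCR Cont (9.95) and HSF1-KD Cont (10.09) overlapped, and SSBP1-KD Cont (10.51), HSF1-KD HS (11.28), SSBP1-KD HS (11.71) and SCR HS (12.58) followed without overlap. Maff had its 3 heated groups together at the top, from 8.93 to 9.04 and overlapping, above Cont groups at 8.17, 8.54 and 8.68 that did not overlap, although the upper 2 of these missed the threshold (0.14, adjusted p = 0.245). In Fosl1 the groups paired by kind of cell: both SCR groups at 10.03 and 10.22, both HSF1-KD groups at 10.52 and 10.59 and both SSBP1-KD groups at 11.29 and 11.32, with overlap only inside a pair.

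The remaining 4 members had narrow ranges. Junb and Fosl2 had nearly the same pattern over the 6 group means, with a root-mean-square difference of 0.04 after each was centred, the smallest of any pair of members. In both, SCR HS (9.71 for Junb, 10.88 for Fosl2) stood clear of the next group (9.34 and 10.60). Jund ranged from 10.55 in HSF1-KD Cont to 11.29 in SCR HS, and Fosb reached 8.53 in HSF1-KD HS and was lowest in SCR Cont. Its upper 5 groups overlapped neighbour by neighbour.

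By the same measure, over 6 group means, the genes outside the list whose patterns were most like Fos were the vault RNA gene Vaultrc5 (0.27), the immediate-early gene Arc (0.29) and Egr2, a zinc finger factor (0.31). For Jun they were Vaultrc5 (0.20), Egr1 (0.28) and the small nucleolar RNA gene Snord37 (0.30), for Atf3 Phlda1 (0.33), the MAP kinase phosphatase gene Dusp1 (0.42) and Arc (0.43), and for Maff Ccin, Ankrd61 and Thoc6 (0.06 to 0.07). These are descriptions of 6 points that share arrays.

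Genes around AP-1 were described by lists drawn from textbook knowledge, given as counts beside the median over all genes, which lay between -0.01 and 0.05 in every comparison. Of 16 measured bZIP relatives of AP-1 outside the 9, 8 rose and 1 fell with heat in SCR, where 16% of all genes were called. The rises were led by Cebpb (0.49, adjusted p = 0.000153), a bZIP factor of the C/EBP family, and Bach1 (0.36, adjusted p = 0.00172), which pairs with small MAF proteins. In HSF1-KD 7 rose and 2 fell, beside 21.4% of all genes called. In SSBP1-KD 1 rose, Mafk (0.28, adjusted p = 0.0153), and 1 fell, Nfe2l2 (-0.27, adjusted p = 0.00286), beside 6.9% of all genes called. Mafk, a small MAF gene like Maff, was also higher than in SCR in both knockdowns without heat, by 0.46 in HSF1-KD (adjusted p = 0.000222) and 0.53 in SSBP1-KD (adjusted p = 3.98e-05). Maf, a large MAF gene, was lower in both, at -0.75 (adjusted p = 5.11e-06) and -0.38 (adjusted p = 0.000918).

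Of 17 measured kinases of the MAP kinase cascades, 7 rose and 1 fell with heat in SCR (median 0.15), where 16% of all genes were called. In HSF1-KD 9 rose (median 0.18), beside 21.4% of all genes called, and in SSBP1-KD 3 rose (median 0.11), beside 6.9%. The median over all genes was -0.01 in each. Mapkapk2, a kinase downstream of p38, was among the 4 largest in each, at 0.31, 0.41 and 0.33 (adjusted p = 0.00336, 0.000364 and 0.00383). The p38 kinase kinases split in SSBP1-KD Cont, where Map2k3 was higher than in SCR by 0.69 (adjusted p = 8.4e-06) and Map2k6 lower, at -0.45 (adjusted p = 0.000111). Map2k3 was lower in HSF1-KD Cont, at -0.39 (adjusted p = 0.00146).

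Among 14 factors known to act at the Fos and Jun promoters, 5 rose and 1 fell with heat in SCR. Of all genes 7.63% rose and 8.34% fell there. In HSF1-KD 8 of the 14 rose, beside 10.6% of all genes, and in SSBP1-KD 4 rose, beside 4.08%. Srf, which binds the serum response element of Fos, rose by 0.42 in SCR (adjusted p = 0.00017) and by 0.34 in both knockdowns (adjusted p = 0.000814 and 0.00186). Mef2a, whose family binds the Jun promoter, rose by 0.37, 0.48 and 0.19 in SCR, HSF1-KD and SSBP1-KD. Before heat, Srf was lower than in SCR in HSF1-KD (-0.27, adjusted p = 0.00465) and higher in SSBP1-KD (0.23, adjusted p = 0.00873). None of these 14 factors, of the 17 kinases or of the 16 bZIP relatives had a heat response that differed between any 2 kinds of cell by this test, which called only 0.346% (HSF1-KD against SCR), 0.492% (SSBP1-KD against SCR) and 0.341% (SSBP1-KD against HSF1-KD) of all genes, so that a count of 0 is near that background. Of 14 chaperones, 11 had a smaller response in HSF1-KD than in SCR and 11 in SSBP1-KD.

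The other immediate-early genes moved with the AP-1 genes in SCR, where 18 of 20 rose (median 0.52), led by Egr2 (1.57, adjusted p = 4.49e-08), Arc (1.52) and Dusp1. Of all genes 7.63% rose with heat in SCR. In HSF1-KD 13 of the 20 rose and 3 fell, beside 10.6% and 10.8% of all genes. In SSBP1-KD 9 rose and 1 fell, beside 4.08% and 2.82%. Against SCR, 7 had a smaller heat response and 1 a larger one in HSF1-KD, beside 0.336% and 0.01% of all genes. In SSBP1-KD against SCR 6 had a smaller response, beside 0.311% of all genes. The heat response of Dusp1, whose product switches MAP kinases off, differed by -0.58 in HSF1-KD (adjusted p = 0.0031) and by -0.71 in SSBP1-KD (adjusted p = 0.00065). Dusp1 means in Cont and HS were 11.08 and 12.58 in SCR, 11.16 and 12.07 in HSF1-KD, and 11.82 and 12.60 in SSBP1-KD. In SSBP1-KD the heated mean thus lay near that of SCR, while the unheated mean lay above it.

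Of 22 known AP-1 target genes 18 were measured. With heat 5 rose and 2 fell in SCR (16% of all genes were called), none rose and 3 fell in HSF1-KD (21.4%), and none passed in either direction in SSBP1-KD (6.9%). In SCR the rises were led by Ptgs2, which encodes the prostaglandin synthase COX-2 (0.51, adjusted p = 0.000139), and Plau, the urokinase gene (0.46, adjusted p = 3.92e-05). Without heat, 10 of the 18 were higher and 2 lower in HSF1-KD than in SCR (median 0.27), beside 21% of all genes called, and 10 were higher and 3 lower in SSBP1-KD (median 0.34), beside 31.1%. All genes, too, were called more often with knockdown than with heat in SSBP1-KD, and the contrast between knockdown and heat was not tested. Ptgs2 was higher in both, by 1.01 (adjusted p = 4.24e-07) and 1.39 (adjusted p = 2.3e-08), and the matrix protein gene Tnc lower in both, at -0.99 (adjusted p = 4.52e-07) and -0.79 (adjusted p = 1.68e-06). The cytokine gene Il6 was among the largest in HSF1-KD (1.14, adjusted p = 8.79e-05), and the collagenase gene Mmp13 (1.21, adjusted p = 7.88e-07) and the growth factor gene Ereg (1.04, adjusted p = 1.41e-05) in SSBP1-KD. Mmp13 was also higher in SSBP1-KD than in HSF1-KD, by 1.16 in Cont (adjusted p = 8.61e-07) and 1.26 in HS (adjusted p = 4.24e-07), and Il6 lower, at -0.97 (adjusted p = 0.00017) and -0.70 (adjusted p = 0.00272).

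**Figure D5:**
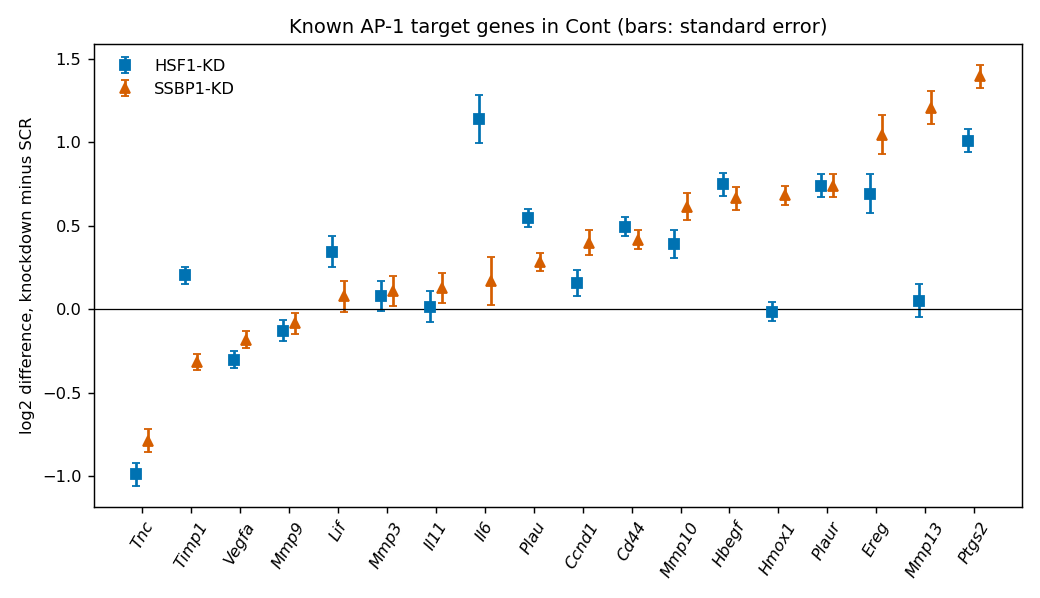
Log2 difference of HSF1-KD and of SSBP1-KD from SCR (vertical axis) in Cont for 18 measured AP-1 target genes, ordered by the SSBP1-KD value; bars are standard errors, 3 arrays per group. Most points lie above 0, Ptgs2 at 1.01 and 1.39, and Tnc lies lowest at -0.99 and -0.79.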

How the data were processed

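RNA was measured on 18 Affymetrix mouse gene arrays, 3 for each of 6 groups. The table that the authors deposited holds log2 signals, with a row for each probe set, and the submitters' processing notes name RMA and Partek 6.5. The values were used as deposited. Arrays give no read depth, and their number limits the precision.

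Of 35557 probe sets, 21789 carried 1 gene symbol, 1621 several and 12147 none. Of those with 1, 21698 were matched to current names through RefSeq (GRCm38.p6), giving 19938 symbols, each read from its brightest probe set. All arrays were fitted together with limma 3.58.1 in R 4.3.3 (lmFit and eBayes, 1 mean per group, 12 residual and 2.36 prior degrees of freedom), and the Benjamini-Hochberg adjustment covered every probe set. The fit was tested on simulated data. Figures used matplotlib 3.10.9 in Python 3.11.15.

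The AP-1 genes and the lists were chosen with earlier results of these data known. All 9 AP-1 genes were named in every comparison, from each list at most 4 genes per comparison with the largest differences at an adjusted p under 0.05, and the 3 most alike genes for members that passed a fold of 1.5 in SCR. Marker genes were named from their list.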

Additional observations from a re-analysis of the deposited data

Results flagged for a closer look

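Heat responses that differed between kinds of cell were found for 3 AP-1 genes, by limma's test of the difference itself. Between HSF1-KD and SCR the log2 heat response differed by -0.98 for Fos (adjusted p = 0.00367) and by -1.44 for Atf3 (adjusted p = 7.38e-06). Between SSBP1-KD and SCR it differed by -1.39 for Fos (adjusted p = 0.000247), by -0.82 for Jun (adjusted p = 7.36e-05) and by -1.43 for Atf3 (adjusted p = 4.21e-05). Between SSBP1-KD and HSF1-KD it differed by -0.55 for Jun (adjusted p = 0.00365).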

How the results depend on the processing

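Of 108 member comparisons, 56 passed the test. Under the 27 alternatives that required no fold, 40 of these kept their call and 16 lost it under at least 1. Another 7 comparisons gained a call, and none of the called values changed sign. The fold above 1.5 is not part of these counts and is given apart below. A replicate number shared between arrays did not tie them together (6 of 45 pairs of same-numbered arrays had residuals correlated above 0.1), and a replicate block changed 1 of 108 calls, Jund in HSF1-KD HS against SCR HS (adjusted p = 0.0678). With a fold above 1.5 required as well, heat shock called 4 members in SCR and 3 in HSF1-KD. HSF1-KD against SCR then called 0 in Cont (4 without the fold, and 5 at an unadjusted p under 0.05) and 3 in HS, SSBP1-KD against SCR 1 in Cont and 4 in HS, SSBP1-KD against HSF1-KD 1 in Cont and 1 in HS, and the difference in heat response between them 0 (1 without the fold).

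With the methods' t-test, adjusted like the main fit, heat shock called 4 members in HSF1-KD and 2 in SSBP1-KD, where Fos missed the threshold (adjusted p = 0.1003). It also ended the calls of Maff with heat in HSF1-KD (adjusted p = 0.058), of Fosl1 in HSF1-KD HS (adjusted p = 0.0666) and of Fosl2 in SSBP1-KD HS (adjusted p = 0.0521) against SCR. That test called 2 in HSF1-KD Cont and 3 in SSBP1-KD Cont against SCR, 2 between the heated knockdowns and 1 where the heat responses of HSF1-KD and SCR were compared. A fit of the compared groups alone called 2 in HSF1-KD Cont and 3 in SSBP1-KD Cont against SCR. Heat shock in SSBP1-KD called 7 with array medians set to 1 value, with brighter probe sets only and with array weights. The smaller heat response in SSBP1-KD than in SCR was called for 5 members with brighter probe sets only, with probe sets of 1 symbol only, with a trended and robust prior and with array weights, Junb and Maff added. The cause of these changes was not tested.

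With each array left out in turn, heat shock called 8 to 9 members in SCR, 5 to 8 in HSF1-KD (5 without HSF1-KD Cont replicate 3) and 4 to 5 in SSBP1-KD. Against SCR, HSF1-KD called 3 to 5 in Cont and 6 to 7 in HS, and SSBP1-KD 4 to 5 in Cont and 7 in HS. Between the knockdowns 3 were called in Cont and 2 to 4 in HS (2 without HSF1-KD HS replicate 2 or SSBP1-KD HS replicate 2). The differences in heat response called 2 (HSF1-KD against SCR), 3 to 4 (SSBP1-KD against SCR) and 1 (SSBP1-KD against HSF1-KD).

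No member had a further probe set with the same single symbol, so that alternative gave no value.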
